A study of Mus musculus with 11 samples.

Results

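The genes described here were 34 genes of the p53 pathway, among them Cdkn1a, in livers of mice given adeno-associated virus 8 (AAV8) that expressed activated Notch receptors. They were chosen by name as p53 target genes and p53 regulators and were found on the array through the RefSeq accession of each array feature. All 34 were among the 22911 genes that could be named on the array, with 54 features between them. Only features that stood well above background on 2 or more of the 11 arrays were tested, a filter that 52 of the 54 features and 33 of the 34 genes passed. Zfp365 was not well above background on any array and has no value below. Each gene was followed by its brightest tested feature unless another feature is named.

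Livers came from C57Bl6/J male mice injected into the peritoneum at 8 weeks of age and collected 5 days later. The intracellular domain of Notch1 (NICD1) or of Notch2 (NICD2) is the freed part of the receptor that acts in the nucleus, so its expression gives signaling without a ligand. The GFP group of 3 arrays received 6e+11 vector genomes of AAV8-GFP per mouse. The NICD1 group and the NICD2 group, 3 arrays each, received 3e+11 vector genomes of the AAV8 that carried the named domain together with 3e+11 of AAV8-GFP. The NICD1&2 group of 2 arrays received 3e+11 of each NICD vector and no AAV8-GFP. Each vector was driven by the CMV promoter, which is not restricted to hepatocytes, so all 4 groups share the AAV8 capsid, the promoter and the total dose. Each array holds whole-liver RNA, in which a change in the share of a cell type and a change in RNA per cell cannot be told apart. Nothing in the labels says how many animals stand behind an array, so the p-values measure the spread between these arrays.

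The transcription factor p53 is held low in unstressed cells by Mdm2, a ubiquitin ligase whose own gene p53 activates, and it is regulated mainly through protein stability rather than through the amount of its mRNA. After DNA damage or other stress it activates genes that halt the cell cycle, favour or restrain cell death, repair DNA and alter metabolism. Cdkn1a encodes p21, the inhibitor of cyclin-dependent kinases through which p53 arrests the cycle, and in liver it restrains hepatocyte division after injury or partial resection.

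p53 binds DNA at 2 adjacent copies of a 10-base unit, the p53 consensus element. It was searched for in the RefSeq promoter windows of build GRCm38.p6, which span 250 bases before to 50 bases after a transcription start. Its 2 units had to touch, to carry the fixed C and G of its core and to differ from the consensus at no more than 2 bases in all. The element reads the same on either strand, so 1 search covers both. Windows were given for 27 of the 34 genes, and 6 of these 27 genes, 22.2%, had such an element, against 106 of the 27025 genes in the table, 0.392%. The 3 stretches below are shown because they hold the element within the 250 bases before a start of genes whose levels are followed closely here, with the element in capitals.

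Cdkn1a, chr17:29090729-29090978, plus strand: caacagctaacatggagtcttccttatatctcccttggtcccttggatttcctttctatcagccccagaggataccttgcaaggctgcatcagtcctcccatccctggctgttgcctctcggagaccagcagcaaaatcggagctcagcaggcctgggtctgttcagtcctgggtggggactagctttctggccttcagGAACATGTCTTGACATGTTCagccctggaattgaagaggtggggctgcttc
Ckap2, chr8:22185820-22186069, minus strand: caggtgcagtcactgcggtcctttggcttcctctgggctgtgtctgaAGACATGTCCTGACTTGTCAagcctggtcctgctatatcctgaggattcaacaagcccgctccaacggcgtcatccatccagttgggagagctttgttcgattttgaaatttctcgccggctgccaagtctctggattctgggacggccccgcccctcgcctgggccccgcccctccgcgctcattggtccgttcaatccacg
Ccng1, chr11:40755287-40755536, minus strand: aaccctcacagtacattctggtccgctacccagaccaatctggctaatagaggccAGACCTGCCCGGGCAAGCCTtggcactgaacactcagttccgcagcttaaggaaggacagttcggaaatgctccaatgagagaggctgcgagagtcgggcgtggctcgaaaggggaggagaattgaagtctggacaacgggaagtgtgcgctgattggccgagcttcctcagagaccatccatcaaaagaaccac

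The Cdkn1a element lay at bases -51 to -32 from its start and differed from the consensus at 1 base, that of Ckap2 at -203 to -184 with 2 differences and that of Ccng1 at -195 to -176 with 1. The other 3 genes with an element were Gtse1, whose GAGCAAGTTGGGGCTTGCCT began at base -1 and ran to base 19, Rps27l with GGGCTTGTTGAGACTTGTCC at -117 to -98, and Zfp365 with AGACTAGGCTGGGCAAGACT at -63 to -44. A second window of Cdkn1a, at its other start, held no such element. A match of letters is a description of the window, and no binding of p53 was measured here.

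With NICD2 the p53 genes were on the whole higher than with GFP, with NICD1&2 higher still, and with NICD1 slightly lower. Values are log2 signals less the 75th percentile of the array, so a difference of 1 is a doubling. The median log2 difference from GFP over the 33 tested genes was -0.15 with NICD1, 0.18 with NICD2 and 0.39 with NICD1&2, beside medians of 0.004, 0.024 and 0.116 over all 16633 tested genes. The NICD1 median was -0.035 without NICD1 3, and the NICD1&2 median was 0.22 after normexp background correction with quantile normalization. That correction adds an offset of 50 to each signal, which by itself makes log2 differences of dim features smaller. Between the NICD arrays themselves, the median was -0.30 for NICD1 less NICD2, beside -0.02 over all genes. Within the first and second slide, the median difference from GFP was 0.22 and 0.07 with NICD2 and 0.34 and 0.37 with NICD1&2. The group mean was highest with NICD1&2 in 26 of the 33 genes, 78.8%, where 51.2% of all genes had their highest mean in that group. It was lowest with NICD1 in 22 of the 33, 66.7%, beside 27.3% of all genes. These counts describe a list that was chosen with earlier results known and carry no test.

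**Figure D1:**
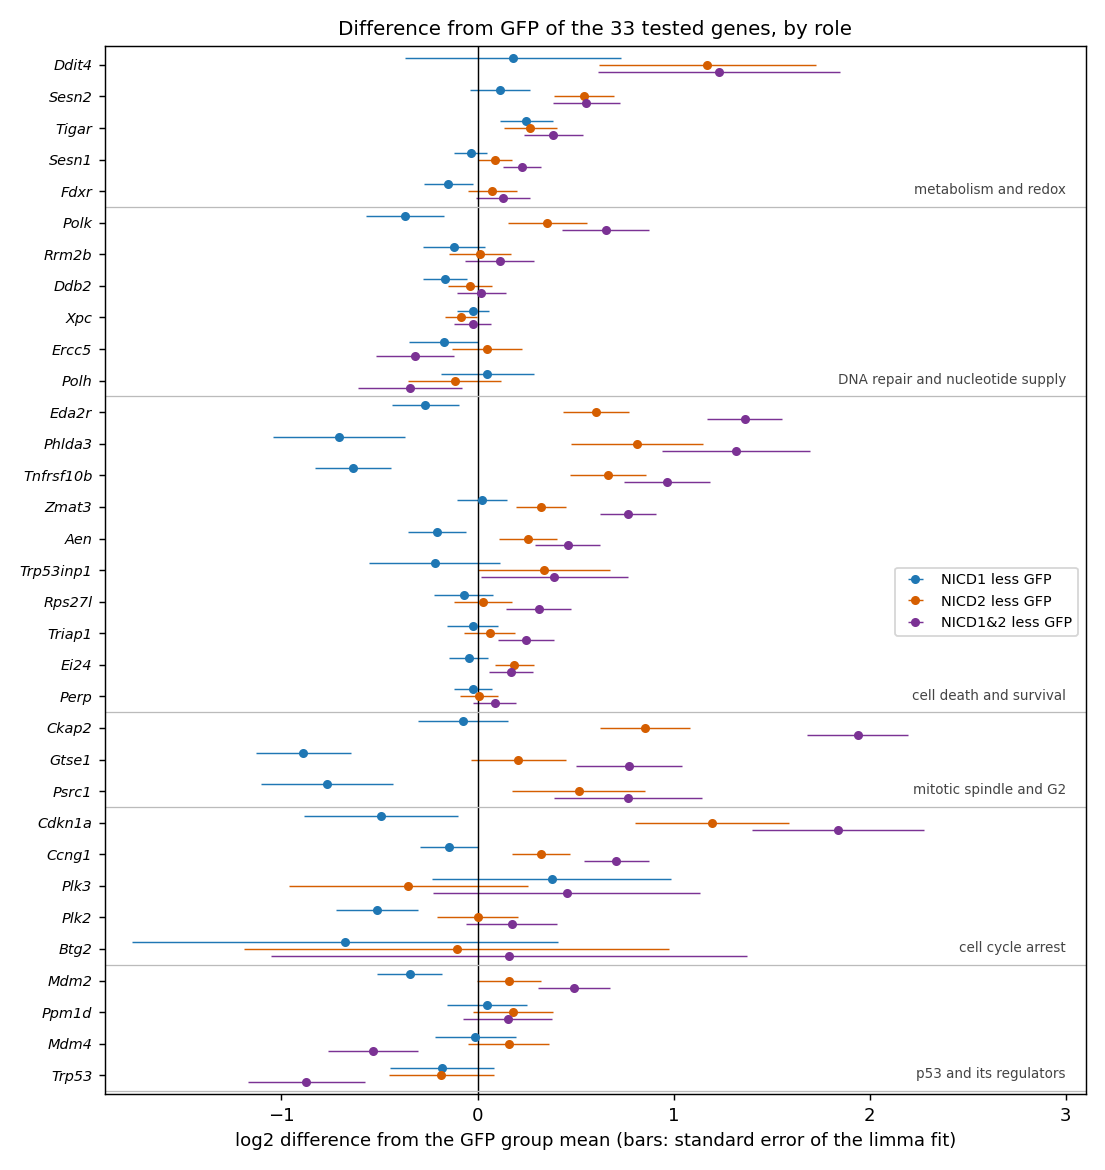
Log2 difference from the GFP group mean for the 33 tested genes, grouped by role, with NICD1 in blue, NICD2 in orange and NICD1&2 in purple, where points are the limma estimates and bars their standard errors. The purple points reach 1.94 for Ckap2 and 1.84 for Cdkn1a, and 26 of the 33 blue points lie left of 0, down to -0.89 for Gtse1, which was well above background on 2 of the 3 NICD1 arrays.

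Few single genes passed a threshold over the whole array. In NICD2 against GFP, no p53 gene had an adjusted p under 0.05 in limma, beside 0.0782% of all genes, and 7 of 33 had an unadjusted P under 0.05, beside 7.8%. The study defined a differentially expressed gene by an unadjusted P under 0.15 with a fold change over 1.8. That definition is applied here to the limma P, which may differ from the P of the study. By it, 3 were higher and none lower, beside 1.14% and 0.595% of all genes. Those 3 were Cdkn1a, Ckap2 and Ddit4. The count was 1 without GFP 2 and 5 without GFP 3. All 3 NICD2 arrays lay above all 3 GFP arrays in 11 of the 33 genes, beside 9.8% of all genes.

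In NICD1&2 against GFP, Ckap2 alone rose with an adjusted p under 0.05, beside 0.144% of all genes, and 16 of 33 genes had an unadjusted P under 0.05, beside 16.8%. The study's definition was met by 6 genes that were higher, namely Cdkn1a, Ckap2, Phlda3, Eda2r, Tnfrsf10b and Ddit4, beside 4.09% of all genes. It was met by 1 that was lower, Trp53, beside 1.06%. Leaving out 1 array gave 5 to 9 that were higher, with 9 without GFP 3. Tnfrsf10b did not meet the definition with normexp background correction and quantile normalization, without GFP 1 or without NICD1&2 2. Ddit4 did not meet it with array weights, without GFP 2 or without NICD1&2 1, and Trp53 did not with normexp, with the slide block or without NICD1&2 2. Both NICD1&2 arrays lay above all GFP arrays in 18 of 33 genes, beside 26% of all genes.

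In NICD1 against GFP, no p53 gene had an adjusted p under 0.05, beside 0.012% of all genes, and 4 of 33 had an unadjusted P under 0.05, beside 5.88%. Only Gtse1 met the study's definition, on the lower side, beside 0.427% of all genes lower and 1.27% higher. Gtse1 did not meet it without GFP 3 or NICD1 3, or after normexp background correction with quantile normalization, where its difference was -0.17. The count was 0 to 3 leaving out 1 array, with 3 without NICD1 1. All NICD1 arrays lay below all GFP arrays for 3 genes, Mdm2, Gtse1 and Tnfrsf10b, beside 6.66% of all genes. The median over the 33 genes was -0.04 within the first slide of arrays and -0.28 within the second.

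In NICD1 against NICD2, again no p53 gene had an adjusted p under 0.05, beside 0.00601% of all genes, while 15 of 33 had an unadjusted P under 0.05, beside 4.25%. The study's definition was met by 8 genes, all lower with NICD1, beside 0.445% of all genes lower and 0.565% higher. These were Cdkn1a, Ckap2, Psrc1, Gtse1, Phlda3, Tnfrsf10b, Eda2r and Ddit4. After normexp background correction with quantile normalization the definition was met by 3, with Ckap2, Psrc1, Gtse1, Tnfrsf10b and Eda2r no longer meeting it. The offset added in that setting makes log2 differences of dim features smaller. Ddit4 and Eda2r each met it in 15 of 21 alternatives. Ddit4 did not meet it with the slide block, with the compared groups alone, or without NICD1 2, NICD1 3, NICD2 1 or NICD2 2. Eda2r did not meet it without NICD1 1, NICD1 3 or NICD2 1, and Ckap2 did not without NICD1 1 or NICD2 2. In 18 of the 33 genes every NICD1 array was below every NICD2 array, beside 6.82% of all genes. The median over the 33 genes was -0.26 within the first slide and -0.38 within the second.

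Adding the second vector was compared as well. In NICD1&2 against NICD1, no p53 gene had an adjusted p under 0.05, beside 0.012% of all genes. An unadjusted P under 0.05 was found in 18 of 33, beside 13.9%. The study's definition was met by 10 that were higher and none that was lower, beside 1.59% and 0.619% of all genes. The 10 were the 8 genes named for NICD1 against NICD2 together with Ccng1 and Polk. In NICD1&2 against NICD2, no p53 gene had an adjusted p under 0.05, as was true of 0% of all genes, and 6 of 33 had an unadjusted P under 0.05, beside 8.46%. Ckap2 alone met the study's definition there, on the higher side, beside 1.78% of all genes higher and 0.439% lower.

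Among p53 and its regulators, the genes that control p53 itself, the mean mRNA level of p53 was not above GFP in any NICD group. Trp53, which encodes p53, read 0.36, 0.37 and 0.34 on the GFP arrays, 0.40, 0.02 and 0.11 with NICD1, and 0.34, 0.36 and -0.18 with NICD2. It read 0.04 and -1.07 with NICD1&2. Both NICD1&2 arrays were below all GFP arrays, but far apart from each other. The difference of NICD1&2 from GFP was -0.87 (standard error 0.30, adjusted p = 0.261), and it was -0.32 without NICD1&2 2 and -1.43 without NICD1&2 1, where the adjusted p was 0.0496.

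Mdm2, the ubiquitin ligase that degrades p53, read 4.63, 4.70 and 4.90 with GFP and 4.43, 4.58 and 4.19 with NICD1. It read 4.84, 4.82 and 5.06 with NICD2, and 4.97 and 5.50 with NICD1&2. The NICD1 arrays lay wholly below and the NICD1&2 arrays wholly above the GFP arrays, while NICD2 overlapped with GFP. Mdm2 was lower with NICD1 than with GFP by a log2 difference of -0.35 (standard error 0.16, adjusted p = 0.903) and higher with NICD1&2 by 0.49 (standard error 0.18, adjusted p = 0.285), the latter 0.23 without NICD1&2 2. A dimmer Mdm2 feature, A_55_P2606086, differed from GFP by -0.05, 0.27 and 0.42 with NICD1, NICD2 and NICD1&2. Mdm4, a relative of Mdm2 that blocks p53 activity, and Ppm1d, a phosphatase that damps the damage response, met no definition. The Mdm4 features split: 3 of them gave differences of -0.53, -0.41 and -0.38 with NICD1&2 and the fourth gave -0.04. Those 3 features read -1.66, -1.72 and -1.67 on NICD1&2 2 and -0.97, -0.99 and -0.97 on NICD1&2 1, beside GFP means of -0.78, -0.95 and -0.94, so the lower values rest on NICD1&2 2.

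Of the 5 genes of cell cycle arrest, Cdkn1a was the one that met the study's definition against GFP. It read 1.19, 1.39 and 2.17 with GFP, 1.48, 1.63 and 0.15 with NICD1, 2.98, 2.55 and 2.82 with NICD2, and 3.26 and 3.58 with NICD1&2. The NICD2 and NICD1&2 arrays did not overlap with GFP or with NICD1, and both NICD1&2 arrays lay above all NICD2 arrays. NICD1 overlapped with GFP, with NICD1 3 far below the other arrays of its group. With NICD1&2 the level was 3.58 times that with GFP, a log2 difference of 1.84 (standard error 0.44, adjusted p = 0.166), and 1.97 and 1.41 within the 2 slides. It was 5.04 times that with NICD1, a difference of 2.33 (standard error 0.44, adjusted p = 0.249). The exact two-sided permutation p of each such non-overlapping pair was 0.1 (n = 3 and 3, or 3 and 2), the smallest such groups allow.

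The further step from NICD2 to NICD1&2 in Cdkn1a was 0.64 (standard error 0.44, 95% interval -0.35 to 1.64, adjusted p = 0.622). The NICD1 difference from GFP was -0.49 (adjusted p = 0.920), with 0.19 within the first slide, -1.28 within the second and -0.03 without NICD1 3. NICD1 less NICD2 was -1.69 (adjusted p = 0.918), -1.28 and -1.93 within the slides, and -1.22 without NICD1 3. A second, dimmer feature of Cdkn1a, A_55_P1986282, gave differences from GFP of -0.07 with NICD1, 0.84 with NICD2 and 1.16 with NICD1&2. Both features thus placed NICD2 and NICD1&2 above GFP with no overlap. In the dimmer feature NICD2, at -2.27, -2.91 and -2.86, overlapped with NICD1&2, at -2.67 and -2.06.

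Ccng1, cyclin G1, a p53 target that feeds back on Mdm2, read 2.45, 2.47 and 2.69 with GFP, 2.59, 2.45 and 2.13 with NICD1, 3.05, 2.82 and 2.71 with NICD2, and 3.15 and 3.34 with NICD1&2. NICD2 lay just above GFP, and NICD1&2 lay above every other array. Its difference from GFP with NICD1&2 was 0.71 (standard error 0.17, adjusted p = 0.163), 0.68 and 0.66 within the slides. The antiproliferative gene Btg2 and the stress kinase gene Plk3 varied more within groups than between them. Btg2 read 0.78, -0.25, 0.39 and 1.37 on the array numbered 1 of the GFP, NICD1, NICD2 and NICD1&2 groups, and between 2.31 and 3.67 on the other 7 arrays. All 4 of those low arrays were on the first slide, whose other 2 arrays, GFP 2 and NICD2 2, read 2.72 and 2.31. Plk2, a kinase of centriole duplication, was lowest on NICD1 3, at -0.91.

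**Figure D2:**
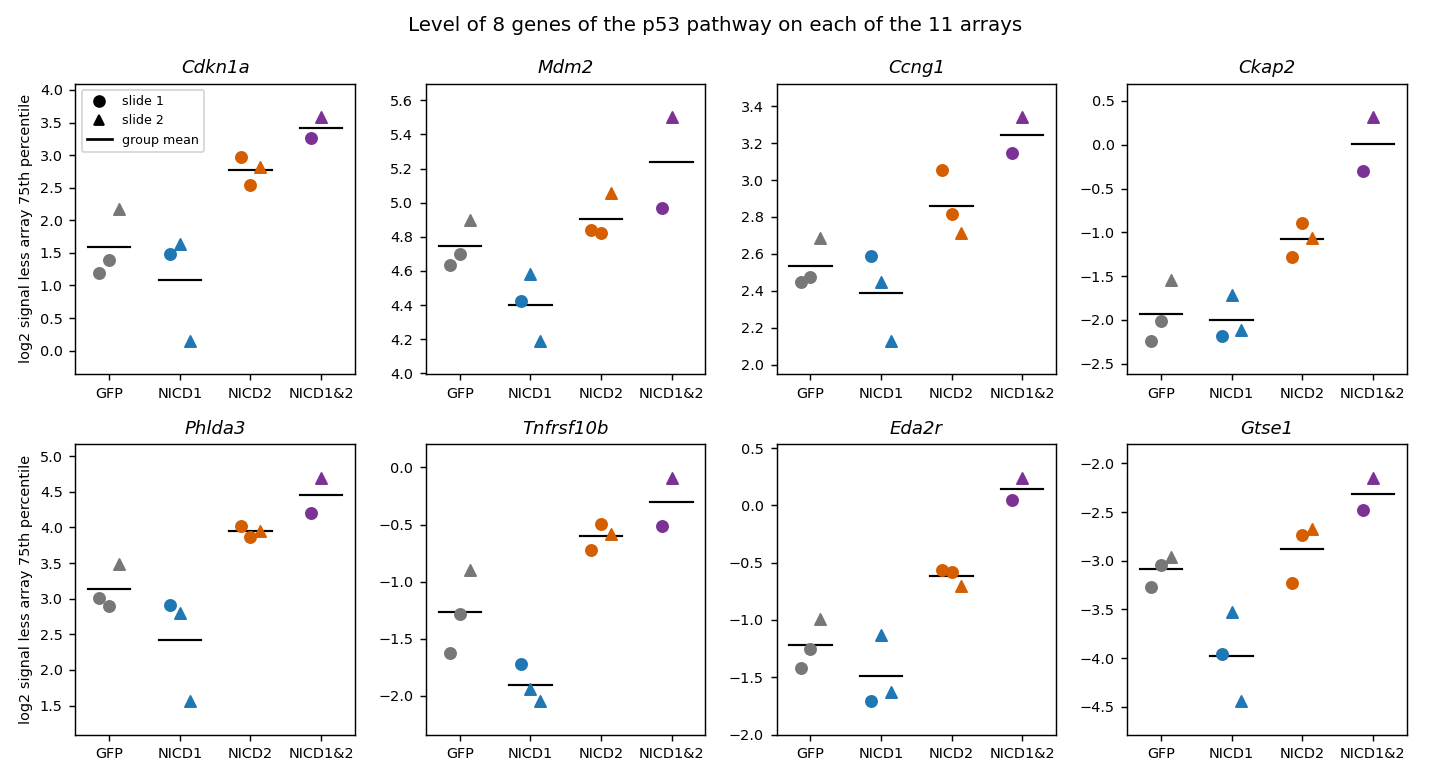
Log2 signal less the 75th percentile of the array for 8 genes, one point per array, in the GFP, NICD1 and NICD2 groups (3 arrays each) and the NICD1&2 group (2 arrays). Circles are the first slide, triangles the second and lines the group means. For Cdkn1a the NICD2 points run from 2.55 to 2.98 and the NICD1&2 points are 3.26 and 3.58, all above the GFP points, while NICD1 3 stands at 0.15.

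The 3 genes of the mitotic spindle and the G2 phase were among those farthest apart between groups, and all 3 were lower with NICD1 than with NICD2 by the study's definition. Ckap2, a spindle protein gene that is also induced by p53, read -2.24, -2.01 and -1.54 with GFP, -2.18, -1.72 and -2.11 with NICD1, -1.28, -0.89 and -1.06 with NICD2, and -0.30 and 0.32 with NICD1&2. NICD1 and GFP overlapped, NICD2 lay above both, and NICD1&2 lay above NICD2. With NICD1&2 it rose 3.83 times against GFP, a log2 difference of 1.94 (standard error 0.26, adjusted p = 0.0442), with 1.83 and 1.86 within the slides. The adjusted p over 21 alternatives ran from 0.0124 to 0.366 and was under 0.05 in 9 of them, and the difference was 0.94 after normexp background correction with quantile normalization. The adjusted p was above 0.05 without GFP 1, GFP 2, NICD1&2 2 or any 1 of the NICD1 or NICD2 arrays, up to 0.298 without NICD1&2 2. With NICD2 the difference from GFP was 0.85 (standard error 0.23, adjusted p = 0.402), and NICD1&2 exceeded NICD2 by 1.09 (standard error 0.26, adjusted p = 0.548). After normexp with quantile normalization these were 0.36 and 0.58, and neither met the study's definition. The NICD2 difference from GFP met it in 13 of 21 alternatives.

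Gtse1, whose product binds p53 and removes it from the nucleus in G2, read -3.27, -3.04 and -2.96 with GFP and -3.96, -3.53 and -4.44 with NICD1. It read -3.23, -2.74 and -2.68 with NICD2, and -2.48 and -2.15 with NICD1&2. All NICD1 arrays were below GFP and both NICD1&2 arrays above it, with NICD2 overlapping GFP. The NICD1 difference was -0.89 (standard error 0.24, adjusted p = 0.729), and it was -0.65 without NICD1 3 and -0.17 after normexp background correction with quantile normalization. This dim feature was well above background on 2 of the 3 NICD1 arrays and on all others, so the sizes of its NICD1 differences rest in part on a signal not well above background. Psrc1, a gene for a microtubule-binding spindle protein, read -1.25, -0.89 and -0.54 with GFP, -1.07, -1.53 and -2.38 with NICD1, -0.17, -0.25 and -0.71 with NICD2, and -0.40 and 0.15 with NICD1&2. NICD1 and NICD2 did not overlap, with a difference of -1.28 (standard error 0.34) that was -0.92 without NICD1 3. After normexp with quantile normalization, NICD1 less NICD2 was -0.71 for Psrc1 and -0.26 for Gtse1.

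The 10 genes of cell death and survival were all higher than GFP with NICD2 and with NICD1&2, by medians of 0.29 and 0.43, where 55.5% and 66.6% of all genes were higher. With NICD1, 9 of 10 were lower than GFP, by a median of -0.14, where 51.0% of all genes were higher. Among these 9, Perp, Ei24 and Triap1 lay below the GFP mean only on NICD1 3. Over the 33 genes, 26 were lower with NICD1, and 21 without NICD1 3. The 10 genes include both killers and protectors. Phlda3, which restrains the survival kinase Akt, read 3.01, 2.90 and 3.49 with GFP, 2.92, 2.79 and 1.56 with NICD1, 4.03, 3.86 and 3.95 with NICD2, and 4.21 and 4.69 with NICD1&2. As in Cdkn1a, NICD2 and NICD1&2 stood clear of GFP, and NICD1 3 was the lowest array. NICD1&2 exceeded GFP by 1.32 (standard error 0.38, adjusted p = 0.210) and NICD2 exceeded it by 0.81 (standard error 0.34, adjusted p = 0.706). NICD1 less NICD2 was -1.52, and -1.09 without NICD1 3. NICD1 less GFP was -0.71, and -0.28 without NICD1 3.

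Tnfrsf10b, the death receptor for TRAIL, read -1.63, -1.29 and -0.89 with GFP, -1.72, -1.94 and -2.05 with NICD1, -0.73, -0.50 and -0.59 with NICD2, and -0.51 and -0.09 with NICD1&2. Every NICD1 array was below, and every NICD2 and NICD1&2 array above, all GFP arrays. The differences from GFP were -0.64 with NICD1 (standard error 0.20, adjusted p = 0.783), 0.67 with NICD2 (standard error 0.20, adjusted p = 0.468) and 0.97 with NICD1&2 (standard error 0.22, adjusted p = 0.152). NICD1 less NICD2 was -1.30 (standard error 0.20, adjusted p = 0.309), with -1.11 and -1.41 within the slides. Its second feature, A_52_P10134, was well above background on 8 arrays but on only 1 of the 3 GFP and 2 of the 3 NICD1 arrays, so its differences are not given. After normexp with quantile normalization the brighter feature gave -0.26 for NICD1 less GFP and -0.71 for NICD1 less NICD2, which no longer met the study's definition.

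Eda2r, a receptor of the TNF family for ectodysplasin A2, read -1.42, -1.25 and -0.99 with GFP, -1.71, -1.13 and -1.63 with NICD1, -0.56, -0.58 and -0.70 with NICD2, and 0.04 and 0.24 with NICD1&2. The 2 NICD1&2 arrays stood above NICD2, and NICD2 above both GFP and NICD1. NICD1&2 exceeded GFP by 1.36 (standard error 0.19, adjusted p = 0.052) and NICD1 by 1.63 (standard error 0.19, adjusted p = 0.069). Another feature, A_52_P207163, gave 0.63 against GFP with NICD1&2. Zmat3, an RNA-binding protein gene induced by p53, ran from 0.01 to 0.41 with GFP and read 0.86 and 1.13 with NICD1&2, a difference of 0.77 (standard error 0.14, adjusted p = 0.109) short of the 1.8-fold change that the definition asks for. The other 6, Perp, Aen, Ei24, Trp53inp1, Triap1 and Rps27l, differed from GFP by 0.09 to 0.46 with NICD1&2. Aen, an apoptosis-enhancing nuclease, had 3 features, all with NICD2 and NICD1&2 above GFP without overlap.

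Among the 6 tested genes of DNA repair and nucleotide supply, the median difference from GFP was -0.14 with NICD1, -0.01 with NICD2 and -0.003 with NICD1&2. NICD1 3 was the lowest NICD1 array for Ddb2, Xpc, Rrm2b and Polh, though not for Polk or Ercc5, so the NICD1 median rests in part on that array. Ddb2 and Xpc, the damage sensors of nucleotide excision repair, differed from GFP by -0.16 to 0.02 in the NICD groups by their brightest features. Polk, a polymerase that copies past damaged bases, was the exception. It read -0.26, 0.29 and 0.34 with GFP, -0.44, -0.02 and -0.29 with NICD1, 0.76, 0.45 and 0.22 with NICD2, and 0.72 and 0.83 with NICD1&2. NICD1&2 was clear of GFP and NICD1, and its difference from NICD1 was 1.02 (standard error 0.22, adjusted p = 0.303), with 0.46 and 0.55 by its other features, A_55_P2205690 and A_55_P2730786. Polh, another such polymerase, had features that disagreed. The brighter one overlapped between GFP and NICD1&2, with a difference of -0.35. The dimmer one, A_55_P2743767, was well above background on 9 of the 11 arrays, all but the NICD1&2 arrays, and read -3.80, -3.80 and -3.76 with GFP. Measured against the lowest signal well above background, it was at least 1.35-fold lower with NICD1&2 than with GFP. The adjusted p of 0.0074 belongs to the fit of the measured signals, those below background included, and not to this bound.

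The 5 genes of metabolism and redox were all higher than GFP with NICD2 and with NICD1&2, by medians of 0.27 and 0.39, where 55.5% and 66.6% of all genes were higher. Of the 5 only Ddit4 met the study's definition in either comparison. Ddit4, an inhibitor of mTORC1 that is also induced by glucocorticoids and hypoxia, read 2.68, 2.39 and 3.40 with GFP, 3.73, 2.53 and 2.76 with NICD1, 4.94, 4.32 and 2.72 with NICD2, and 4.23 and 3.88 with NICD1&2. NICD2 3 lay within the GFP range, so only NICD1&2 was clear of GFP. The NICD2 difference was 1.17 (standard error 0.55, adjusted p = 0.768), with 2.10 within the first slide and -0.68 within the second. It was 0.70 without NICD2 1 and 1.81 without NICD2 3. Sesn2 and Sesn1, sestrins that restrain mTORC1, differed from GFP with NICD1&2 by 0.55 and 0.23. Tigar, which lowers glycolytic flux, and Fdxr, the mitochondrial ferredoxin reductase, differed by 0.39 and 0.13.

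The array-by-array median shows how much of this rests on single arrays. Over the 33 genes, the median difference from the GFP mean was -0.09, -0.05 and 0.15 on the GFP arrays, -0.05, -0.03 and -0.22 with NICD1, 0.18, 0.18 and 0.18 with NICD2, and 0.31 and 0.46 with NICD1&2. Both NICD1&2 arrays and all NICD2 arrays stood above all GFP arrays, and NICD1 was within the GFP range apart from NICD1 3. The medians over all 16633 genes ran from -0.03 to 0.06 on the arrays other than NICD1&2 2, which stood at 0.19. Leaving Cdkn1a out moved the NICD1&2 medians to 0.27 and 0.40, and NICD2 3 to 0.15, beside 0.14 for GFP 3.

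**Figure D3:**
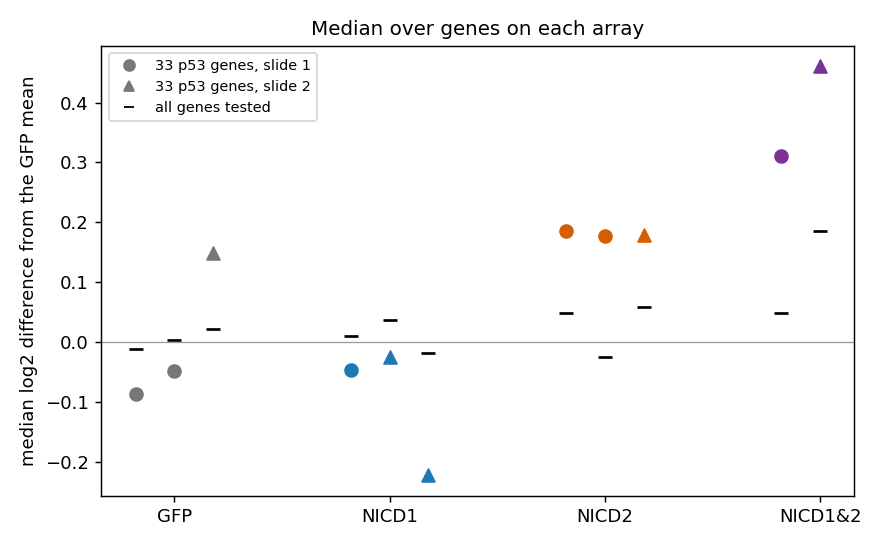
Median over genes of the log2 difference from the GFP group mean on each array, where coloured points are the 33 p53 genes (circles first slide, triangles second slide) and black dashes all tested genes. The NICD2 points are all at 0.18 and the NICD1&2 points at 0.31 and 0.46, above the GFP points, of which GFP 3 is at 0.15.

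NICD1 less NICD2 and NICD1&2 less GFP share no array, although both draw on the same 2 slides. Across the 33 genes, those lower with NICD1 than with NICD2 were in the main those higher with NICD1&2 than with GFP, with a Pearson r of -0.74 and a Spearman rho of -0.76. Over all 16633 genes the same pair of comparisons gave -0.04 and -0.07. Of the 33 genes, 27 were lower in the first and higher in the second, 81.8%, beside 38.7% of all genes. Without Cdkn1a and Ckap2, r over the other 31 genes was -0.69. These are correlations across genes, which are not independent replicates, and they describe a list chosen with earlier results known.

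**Figure D4:**
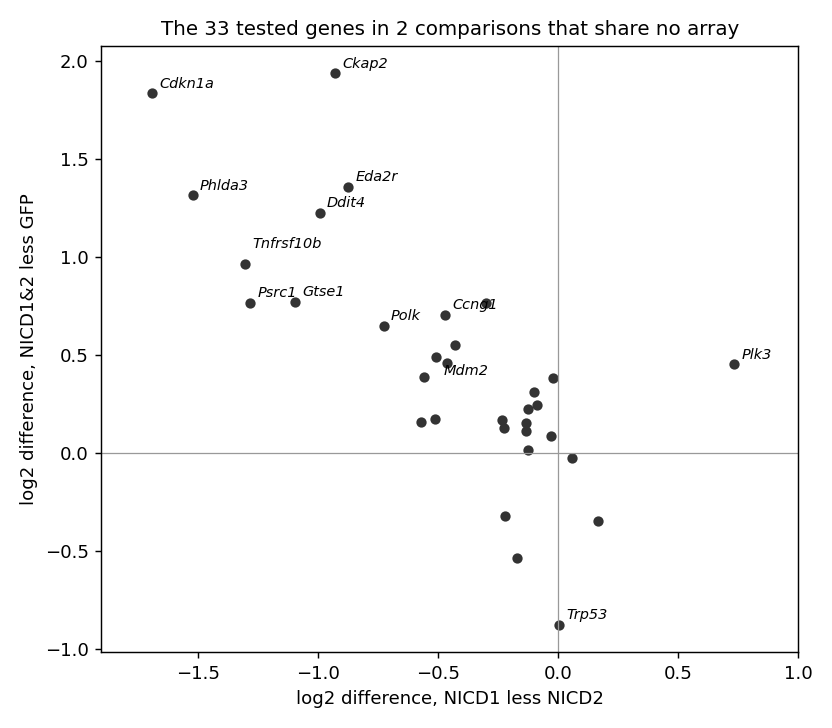
Log2 difference of NICD1&2 from GFP against log2 difference of NICD1 from NICD2, one point for each of the 33 tested genes. Cdkn1a (-1.69, 1.84), Ckap2 (-0.93, 1.94) and Phlda3 (-1.52, 1.32) lie at the upper left, Trp53 (0.00, -0.87) at the bottom and Plk3 (0.73, 0.45) alone at the upper right.

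The joint effect of both vectors was compared with the sum of their separate effects, as an interaction in the same fit. No p53 gene had an adjusted p under 0.05 for it, as was true of 0% of all genes, and 7 of 33 had an unadjusted P under 0.05, beside 6.94%. Those 7, Gtse1, Phlda3, Eda2r, Ccng1, Mdm2, Tnfrsf10b and Ckap2, were all above the sum, by 0.53 for Ccng1 to 1.45 for Gtse1, which was well above background on 2 of the 3 NICD1 arrays.

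Across the 11 arrays, the named genes outside the list that followed Cdkn1a most closely were Ddit4l, with r of 0.98, Coa6 and Slc37a4, each with 0.97, and Dglucy and Endog, each with 0.96, among 16599 genes with a value on every array. Within the list, Phlda3 (0.98), Ccng1 (0.96) and Aen (0.95) followed it most closely, and 19 of the other 32 genes had r over 0.7, beside 7.51% of all genes. After the group means were taken out, r with Cdkn1a was 0.95 for Phlda3, 0.84 for Ccng1 and 0.80 for Aen. Trp53 had r of -0.50 with Cdkn1a over the 11 arrays. These values are a description over arrays that include NICD1 3 and have no test.

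The rest of the pathway was followed in lists of other genes. Of 18 activators and modifiers of p53, such as Atm, Chek2 and Sirt1, none met the study's definition in any of the 6 comparisons, and their median differences from GFP were 0.01, 0.05 and 0.16 with NICD1, NICD2 and NICD1&2. Of 17 other p53 targets, 16 were tested and none had an adjusted p under 0.05. Of the 16, 3 were higher than GFP with NICD1, 5 with NICD2 and 9 with NICD1&2, with median differences of -0.15, -0.13 and 0.06. Among them Thbs1, thrombospondin 1, met the study's definition in NICD2 against GFP but was well above background on only 4 of the 11 arrays, 1 of them GFP, so its difference is not given. The apoptosis effector Bax was higher with NICD1&2 than with NICD1, at 0.89. Of 14 partners of p21, 12 were tested, and Cdk1, a kinase of mitotic entry, met the definition, being higher with NICD1 than with GFP by 0.91 and than with NICD2 by 1.23.

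The Notch response itself was read from 6 genes. Nrarp, a direct Notch target, was not well above background on any GFP array, and was at least 4.65-fold and 7.06-fold higher than GFP with NICD2 and NICD1&2. With NICD1, Nrarp was well above background on 2 of the 3 arrays, so no size is given there. Hes1, another target, differed from GFP by -0.03 with NICD1, 1.64 with NICD2 and 1.36 with NICD1&2. In NICD1 against NICD2, 3 of the 6 genes were higher and 3 lower, with a median difference of -0.05. Hes1 (-1.67), Hey1 (-0.18) and Nrarp were the lower ones, with no size given for Nrarp since 1 NICD1 array was not well above background, and Notch1 (0.60), Heyl (0.20) and Notch2 (0.09) the higher ones, none with an adjusted p under 0.05. Hes1 met the study's definition there, and a role of unequal Notch activity in the p53 gene values was not tested.

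The cell types behind the RNA were read from marker genes. Between 57.0% and 62.0% of the spots on each array were well above background, and no spot was saturated. For each list the signals were summed and the log2 of the sum is given, so the brightest markers lead it. The 7 hepatocyte markers were well above background on all arrays, and summed to 11.71 to 11.77 with GFP, 11.53 to 11.82 with NICD1, 11.65 to 11.86 with NICD2 and 11.87 to 11.93 with NICD1&2. The 6 cholangiocyte markers summed to 2.80 to 3.32 with GFP, 4.49 to 4.94 with NICD1, 4.50 to 4.93 with NICD2 and 5.02 to 5.33 with NICD1&2. These sums are close to the signal of Spp1, osteopontin, alone, which was higher than GFP by 1.71, 1.81 and 2.23. All 6 were higher than GFP in each NICD group, by medians of 0.43, 0.54 and 0.69, with 4 of them well above background on all arrays. Sox9 was higher by 1.16 with NICD1&2. The 7 Kupffer cell and monocyte markers summed to 5.89 to 6.38, 5.87 to 6.05, 5.89 to 6.10 and 6.21 to 6.37 in the same order, with all 7 lower than GFP with NICD1, 6 with NICD2 and 3 with NICD1&2. Marco differed from GFP by -0.88, -0.70 and 0.51, and Itgam by -0.33, -0.54 and -0.98. The 7 lymphocyte markers summed to 1.99 to 2.17, 1.82 to 1.90, 1.88 to 1.95 and 2.09 to 2.16, with 6 of 7 lower than GFP with NICD1, all 7 with NICD2 and 5 with NICD1&2. Cd79a met the definition with NICD1 but was well above background on 1 of the 3 NICD1 arrays. The 6 stellate cell markers, led by Dcn, summed to 6.71 to 6.76 with GFP, 6.64 to 6.83 with NICD1, 6.79 to 6.98 with NICD2 and 6.75 to 6.82 with NICD1&2, so NICD2 lay above GFP. Of these markers 5 were higher than GFP with NICD1, 6 with NICD2 and 5 with NICD1&2, with median differences of 0.11, 0.19 and 0.13. The 5 endothelial markers stayed between 4.38 and 4.72. Of the endothelial markers 3 were higher than GFP with NICD1, 3 with NICD2 and 2 with NICD1&2, with median differences of 0.001, 0.03 and -0.10, and Lyve1 alone met the definition, at 0.86 with NICD2 and 0.93 with NICD1&2. Of the 5 markers of exocrine pancreas, Cela1 and Amy2a5 were well above background on all 11 arrays, and Cpa1, Pnlip and Prss2 on no array. The part of these marker differences in the p53 gene values was not tested.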

How the data were processed

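Liver RNA was hybridised to 1-colour Agilent mouse arrays, and the authors extracted spot intensity with Feature Extraction 11.5.1.1, per the file headers, which also flag spots well above background. The deposited log2 table was scaled by the authors in GeneSpring GX. Here the deposited processed intensity was taken as log2 less the 75th percentile of its array. It differed from the deposited log2 values by at most 0.0070 over the genes described. Of 56605 features, 36049 well above background on at least 2 of 11 arrays were tested with limma 3.58.1 in R 4.3.3 (lmFit and eBayes on the group means of all arrays, Benjamini-Hochberg adjustment over all features tested). No spot was saturated, and the number of arrays limits the precision. The scripts were tested on simulated data.

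Features were named through their RefSeq accession, and the brightest tested feature stood for a gene. Values on every array are given for genes with an adjusted p under 0.05 or meeting the study's definition in any comparison, and for Cdkn1a, Mdm2, Trp53 and Ccng1. Pathway and marker lists covered p53 activators and modifiers, other p53 targets, p21 partners, Notch genes, and hepatocyte, cholangiocyte, Kupffer cell, lymphocyte, stellate, endothelial and exocrine pancreas markers. The members and lists were chosen with earlier results of these data known. Other normalizations, filters, thresholds, blocks for slide and replicate number, array weights and leaving out each array were tried. Exact permutation tests used Python 3.11.15 with numpy 2.4.6, the 95% intervals scipy 1.17.1 and the figures matplotlib 3.10.9.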

Additional observations from a re-analysis of the deposited data

Results flagged for a closer look

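In 3 genes the NICD1 arrays and another NICD group lay wholly on opposite sides of the GFP arrays. Mdm2 had every NICD1 array below and every NICD1&2 array above all GFP arrays, with NICD1&2 above NICD1 by a log2 difference of 0.84. Gtse1 had the same arrangement with a difference of 1.66, and its signal was well above background on 2 of the 3 NICD1 arrays and on all others, so this size rests in part on a signal not well above background. Tnfrsf10b had every NICD1 array below and every NICD2 array above all GFP arrays, with NICD2 above NICD1 by 1.30, and NICD1&2 above NICD1 by 1.60. Among all 16633 tested genes, the arrangement of Mdm2 and Gtse1 was found in 96, or 0.577%, and of the 33 p53 genes in 3, the third being Tnfrsf10b. NICD1 below and NICD2 above all GFP arrays was found in 18 of all genes, or 0.108%, and in 1 of the 33. The arrangement itself was not tested, and the limma adjusted p of these group differences was 0.308 for Mdm2, 0.202 for Gtse1, and 0.309 and 0.104 for Tnfrsf10b. No group held 4 or more arrays, so single arrays were not tested for standing apart.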

How the results depend on the processing

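Groups held 2 or 3 arrays. Over all features, the calls at an adjusted p under 0.05 were 3, 19, 36, 1, 5 and 1 for NICD1 vs GFP, NICD2 vs GFP, NICD1&2 vs GFP, NICD1 vs NICD2, NICD1&2 vs NICD1 and NICD1&2 vs NICD2. In that order the study's definition, applied to the limma P, gave 788, 711, 2250, 438, 971 and 1105, and an unadjusted P under 0.05 with a fold change over 2 gave 215, 294, 855, 161, 395 and 378. The paper reports larger counts of altered genes for NICD1 and for NICD2 against GFP by its own P. At an adjusted p under 0.05, the compared groups alone gave 0, 5, 0, 0, 0 and 0. Normexp with quantile normalization gave 78 for NICD2 vs GFP, 398 for NICD1&2 vs GFP, 5 for NICD1 vs NICD2, 52 for NICD1&2 vs NICD1 and 0 for NICD1&2 vs NICD2. Quantile normalization gave 2 for NICD1 vs NICD2 and 3 for NICD1&2 vs NICD1, and the percentile over detected features 2 for NICD1 vs NICD2. Array weights gave 16 for NICD1&2 vs GFP, 2 for NICD1 vs NICD2, 1 for NICD1&2 vs NICD1 and 0 for NICD1&2 vs NICD2. No filter gave 10, 23, 1 and 0, and a filter on all 11 arrays 45, 115, 10 and 0, for NICD2 vs GFP and the 3 NICD1&2 comparisons. The slide block gave 10 for NICD1&2 vs NICD1 and 0 for NICD1&2 vs NICD2. Leaving out 1 array gave 10 to 17 for NICD2 vs GFP, 4 to 233 for NICD1&2 vs GFP, 1 to 2 for NICD1 vs NICD2, 0 to 208 for NICD1&2 vs NICD1 and 0 to 122 for NICD1&2 vs NICD2, with 233, 208 and 122 without NICD1&2 1 and 4, 0 and 0 without NICD1&2 2 in the 3 NICD1&2 comparisons.

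After the group means were taken out, 6 of 15 same-number pairs correlated above 0.1 (r from -0.43 to 0.18). With groups of 2 or 3 arrays, such correlations cannot show whether replicate numbers pair the arrays. Btg2 was lowest on the array numbered 1 in all 4 groups. The replicate block gave 12 for NICD2 vs GFP and 0 for both NICD1&2 vs NICD1 and NICD1&2 vs NICD2.

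Of the 33 genes, the study's definition called 1, 3, 7, 8, 10 and 1 in the same order and 7 for the interaction, and P under 0.05 with a fold change over 2 called 1 for NICD2 vs GFP, 4 for NICD1&2 vs GFP, 5 for NICD1 vs NICD2, 8 for NICD1&2 vs NICD1, 1 for NICD1&2 vs NICD2 and 4 for the interaction. At an adjusted p under 0.05, NICD1&2 vs GFP gave 1, then 5 with normexp, 3 with the filter on all arrays, 2 with all features, and 0 with the compared groups alone, array weights or no filter. NICD1&2 vs NICD1 gave 4 with normexp, 3 with the filter on all arrays, 1 with the slide block and 1 with all features. Leaving out 1 array gave 0 to 2 and 0 to 3. The median difference for NICD1&2 vs GFP was 0.26 with quantile normalization, 0.28 with the slide block, 0.22 with normexp and 0.27 with array weights, and 0.26 to 0.47 leaving out 1 array. It was -0.20 for NICD1 vs NICD2 with normexp, and -0.18 to -0.035 for NICD1 vs GFP leaving out 1 array. Over all features that median moved by -0.106, -0.113 and 0.104 for NICD1&2 vs GFP with quantile normalization, normexp and no filter.

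Differences near 0 turned. Ddit4 in NICD1 vs GFP was -0.04 without GFP 2 and -0.18 without NICD1 1, in a range of -0.18 to 0.47. Ckap2 there was 0.12 without GFP 3 and 0.01 without NICD1 1, in a range of -0.23 to 0.12. Trp53 in NICD1 vs NICD2 was -0.025 with normexp background correction and quantile normalization, and -0.17 to 0.10 leaving out 1 array, below 0 without NICD1 1 (-0.10) and NICD2 3 (-0.17). The cause of these changes was not tested.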
